A study of Mus musculus with 8 samples.

Results

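The enzymes and regulators of cholesterol and fatty acid synthesis were compared between primed and naive mouse pluripotent stem cells by RNA-seq of polyadenylated RNA. The set held 30 genes chosen by symbol, from the mevalonate pathway through sterol synthesis, the SREBP and Insig regulators, and the building, elongation and desaturation of fatty acids. Of these, 29 were listed at 1 locus, out of 22987 such genes in all, and every one of the 29 passed the filter of at least 1 FPKM in at least 4 libraries. The remaining gene, Hmgcs1, was listed only at 2 places on unplaced sequence of chromosome 13, at 0 in every library, and is not analysed here. The primed cell was the epiblast stem cell (mEpiSC), the primed counterpart of the post-implantation epiblast, in 4 libraries grown with 10 ng/ml FGF2. Replicate 1 came from the line EpiSC5, replicate 4 from EpiSC9 and the other two from EpiSC7. It was set against the embryonic stem cell (mESC), the naive counterpart of the inner cell mass, in 4 libraries grown with 1000 units/ml LIF. Replicates 3 and 4 came from the line ESF175/1 and replicates 1 and 2 from ESF122. Both media contained 20% serum replacement, both cell types grew on irradiated mouse embryonic fibroblasts and were separated from them before extraction, and the labels name no genetic change in any line. Nothing in the labels says that libraries of 1 line were separate cultures, so p-values measure the spread between these libraries, which may be technical.

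Cells make cholesterol from acetyl-CoA by way of mevalonate, farnesyl units, squalene and lanosterol, and they build palmitate from acetyl-CoA with malonyl-CoA as the extender. Both routes are under the transcription factors SREBP1 and SREBP2, encoded by Srebf1 and Srebf2, which are held in the endoplasmic reticulum by the Insig proteins while sterols are plentiful and are cleaved to reach the nucleus when sterols run low. Nuclear SREBP binds its target promoters beside the general factors NF-Y and Sp1. Fast-dividing stem cells need both lipid classes for new membranes.

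Values are FPKM as deposited, in the order of replicates 1 to 4 of each state, and means are given with SD (n = 4 libraries per state). Differences are mEpiSC minus mESC on the log2(FPKM + 1) scale with the standard error (SE). They come from limma fitted to 11556 genes, with p-values adjusted by Benjamini and Hochberg over all of them and a threshold of 0.05. The libraries held 24800000 to 38600000 fragments as implied by the deposited intervals, and each gene of the set rested on 244 to 67326 implied fragments per library. Most state markers went with the labels: 7 of 7 naive markers were called lower in mEpiSC and 5 of 6 primed markers higher. The remaining 1 primed marker had a difference below 0 and was not called. Esrrb, a factor of the naive state, measured 0.451 to 1.83 FPKM in mEpiSC and 36.5 to 76.1 FPKM in mESC. The adhesion molecule Cdh2, from the primed list, measured 12.6 to 32.9 FPKM in mEpiSC and 0.876 to 2.72 FPKM in mESC. Both replicate 4 libraries stood apart from the rest on the second principal component, at −48.9 in mEpiSC 4 and −33.5 in mESC 4 against 8.85 to 20.6 in the other 6 libraries. Feeder cell markers were detected throughout: the summed FPKM of 15 fibroblast genes was 77.0 to 577 in mEpiSC and 7.99 to 307 in mESC libraries, 4 of the 15 were called higher in mEpiSC and none lower, and none of the 15 was at 0 in any library. In such bulk samples fewer cells of a type and less RNA per cell cannot be told apart.

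Several sterol and fatty acid enzymes were higher in mEpiSC, mostly by less than 2-fold, and none was called lower. Of the 29 genes, 10 (34.5%) passed the limma test as higher in mEpiSC (Benjamini-Hochberg adjusted p under 0.05), where 23.1% of all genes tested did. No gene of the set was called lower, where 14.2% of all genes tested were. The 10 were Idi1, Sqle, Cyp51, Hsd17b7, Dhcr7, Srebf2, Stard4, Elovl5, Scd1 and Scd2, and only Scd2 reached a 2-fold difference on the fitted scale. The log2 difference was above 0 for 25 of the 29 genes and below 0 for Fdft1, Tm7sf2, Acly and Elovl6. Lss and Acss2 joined those below 0 under median ratio scaling, and Lss, Acss2 and Acaca under quantile normalization. The median difference was 0.39, beside 0.083 over all genes tested. Over all genes tested 2665 were called higher and 1640 lower, but 2291 and 2199 under median ratio scaling and 2188 and 2207 under quantile normalization. Of the set, 7 genes (24.1%) were called higher under median ratio scaling, where 19.8% of all genes were, with Sqle, Dhcr7 and Srebf2 lost (adjusted p = 0.066, 0.065 and 0.11). Under quantile normalization 10 (34.5%) were, against 18.9% of all genes, with Idi1 and Srebf2 lost (adjusted p = 0.073 and 0.061) and Mvd and Acat2 gained (0.038 and 0.022). Under quantile normalization, which moved the median of all genes to −0.019, the set's median was 0.31, and under median ratio scaling the values were −0.014 and 0.28. The 4 mEpiSC values lay above the 4 mESC values, with no overlap, for 13 genes of the set, and below them for 0, where 22.2% and 14.9% of all genes tested did so. The summed FPKM of the 29 genes was 998, 1017, 1082 and 1220 in mEpiSC and 809, 924, 734 and 742 in mESC, so that each mEpiSC library lay above each mESC library.

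**Figure D1:**
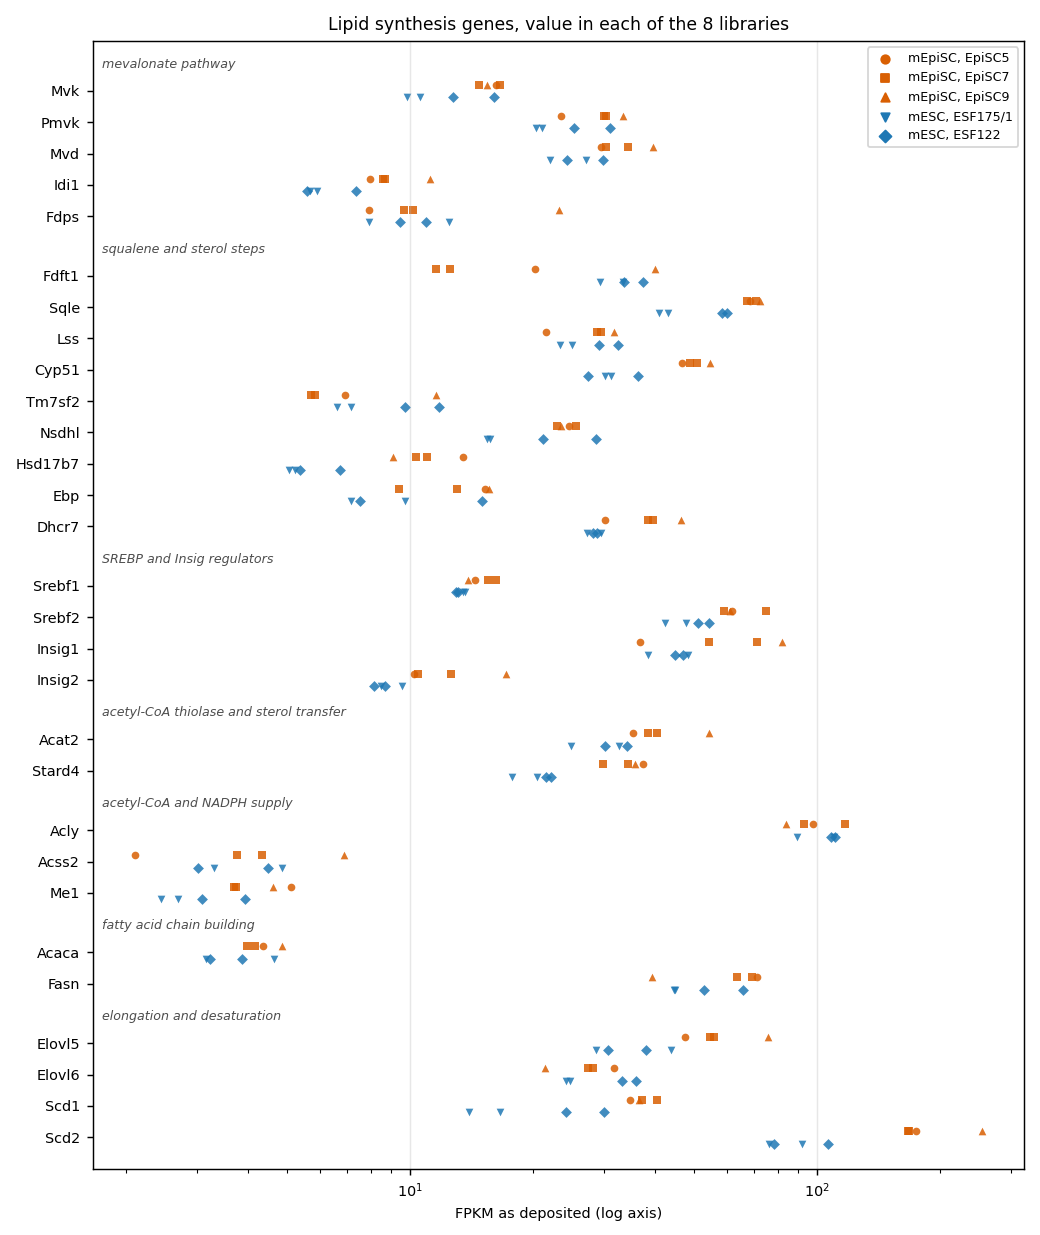
FPKM of the 29 lipid synthesis genes in each library on a log axis, by role, with mEpiSC libraries in orange above mESC libraries in blue and the marker shape giving the cell line. Orange lies to the right of blue without overlap for 13 genes, Scd2 among them, while for Fdft1 3 mEpiSC libraries lie to the left of all 4 mESC libraries.

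**Figure D2:**
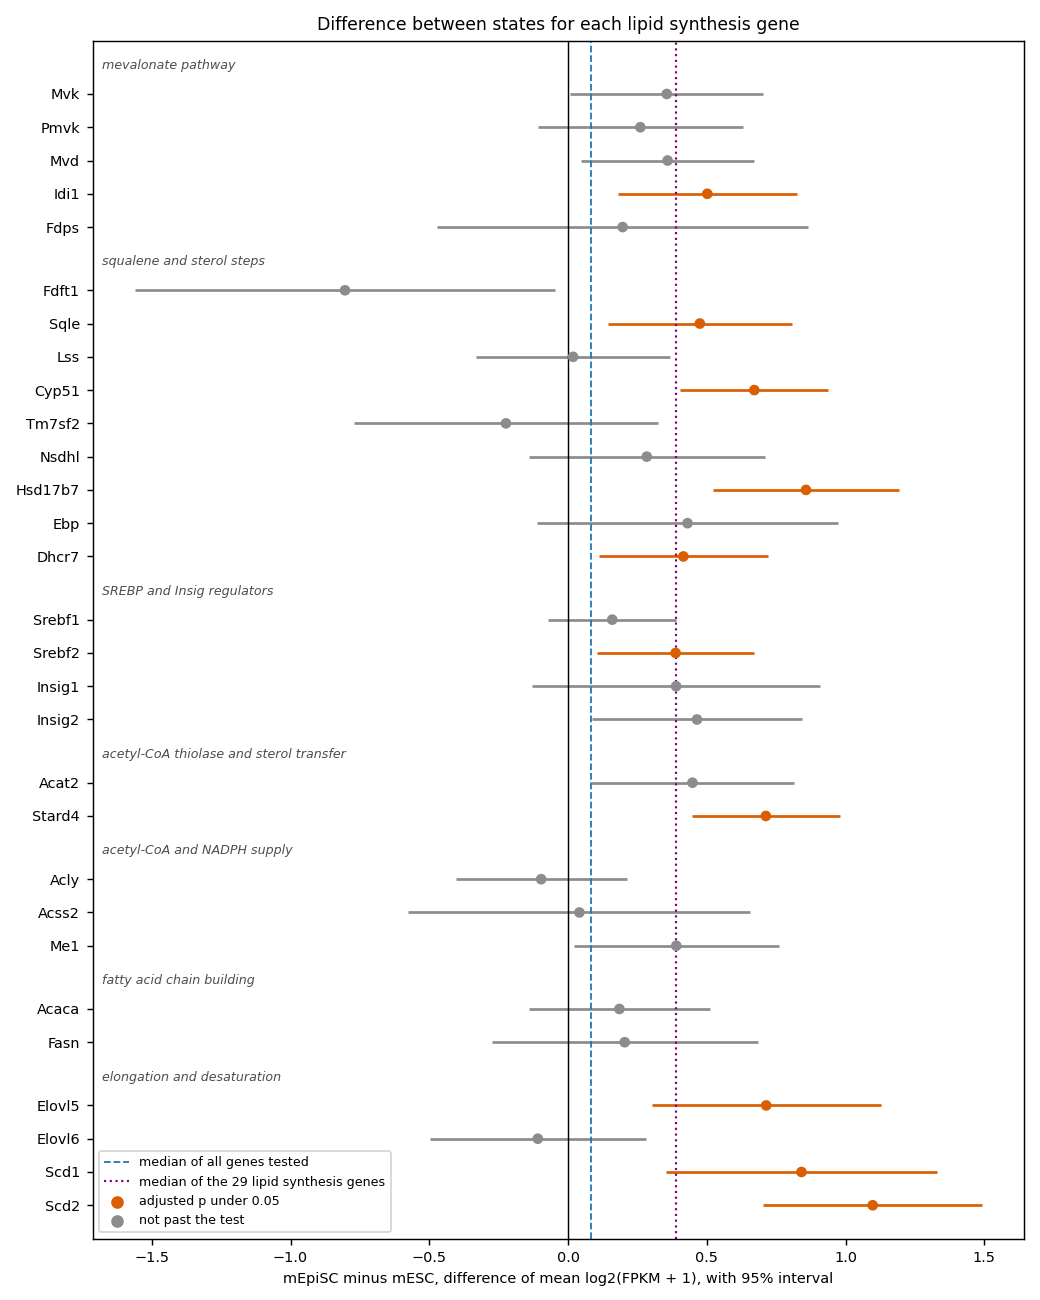
Difference of mean log2(FPKM + 1), mEpiSC minus mESC, for each gene with its 95% interval from limma, orange where the adjusted p was under 0.05. The dashed line is the median of all genes tested (0.083) and the dotted line the median of the 29 genes (0.39), and 18 of the 19 grey intervals lie between −1 and 1.

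The number of calls depended on how the lines were counted. Where cell line entered as a random block, 5 genes (17.2%) were higher, against 15.5% of all genes tested. With 1 mean per line 3 (10.3%) were, against 7.49% of all genes (Scd2, adjusted p = 0.036; Stard4, 0.039; Cyp51, 0.044). Without mESC 3 the number was 6 (20.7%, against 16.5% of all genes). With replicates 1 to 3 only, 9 genes (31.0%) were higher, against 26.4% of all genes. In the same fit 2, Fdft1 and Tm7sf2, were lower, where 18.7% of all genes were. In that fit Sqle and Dhcr7 did not pass (adjusted p = 0.067 and 0.052), Insig2 did (0.037), and the Fdps difference was −0.020. All 10 differences stayed above 0 under the 21 alternatives. Where the mean fibroblast marker level was a covariate, 10 genes (34.5%) were higher, against 19.9% of all genes, and 7 were among the 10 above. Sqle, Srebf2 and Scd1 had log2 differences of 0.34, 0.33 and 0.66 in that fit and did not pass (adjusted p = 0.17, 0.14 and 0.099), while Mvd, Insig2 and Acat2 did. Markers of primitive endoderm also went with the state, with a summed FPKM of 12.0 to 59.1 in mEpiSC and 2.65 to 4.89 in mESC libraries and 4 of 4 tested genes called higher, and their part in the result was not tested.

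The promoters of these genes shared a feature that the choice of the set did not use. RefSeq promoter windows on GRCm38.p6, of 250 bases before and 50 after a gene's start, matched 23 of the 29 genes. Fdps, Fdft1, Sqle, Stard4, Scd1 and Scd2 had none, and of these Sqle, Stard4, Scd1 and Scd2 were called higher. Some genes had several windows, and a gene was counted where any of them held the motif. By gene, 20 of the 23 (87%) held the NF-Y box CCAAT on either strand, against 43.9% of the 8309 tested genes with a window. By window, 21 of 31 held it, against 37.4% of all 32851 windows. In 15 of the 23 (65.2%) a box began within the last 100 bases before the start, against 27.5% of the tested genes. The GC box GGGCGG, a site for Sp1, was in 78.3% of the 23 against 72% of the tested genes, and the E-box CACGTG in 17.4% against 12.3%. The sterol regulatory element core TCACNCCAC was in none of the 31 windows of the 23 genes. It was in 1.43% of the tested genes, in these windows and for these exact letters only. Both strands were read for each motif and none of the motifs contains another. Of the matched genes, 6 were called higher and 17 were not. The E-box was in 3 of the 6 and 1 of the 17, and the GC box in 5 of the 6 and 13 of the 17. These splits were not tested. The NF-Y box was in 6 of the 6 and 14 of the 17, so it did not part the called genes from the others. The windows below are those of 5 genes called higher, each with a box, and of Elovl6, which had none and was not called. They are written 5′ to 3′ along the gene, with CCAAT or its reverse complement ATTGG in capitals.
Idi1, chr13:8885356-8885655, plus strand: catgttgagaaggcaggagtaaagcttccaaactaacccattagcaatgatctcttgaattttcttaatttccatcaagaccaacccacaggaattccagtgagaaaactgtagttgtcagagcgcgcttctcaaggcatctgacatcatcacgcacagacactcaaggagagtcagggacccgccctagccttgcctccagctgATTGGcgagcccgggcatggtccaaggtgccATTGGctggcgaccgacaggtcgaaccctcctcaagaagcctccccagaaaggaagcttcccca
Cyp51, chr5:4104648-4104947, minus strand: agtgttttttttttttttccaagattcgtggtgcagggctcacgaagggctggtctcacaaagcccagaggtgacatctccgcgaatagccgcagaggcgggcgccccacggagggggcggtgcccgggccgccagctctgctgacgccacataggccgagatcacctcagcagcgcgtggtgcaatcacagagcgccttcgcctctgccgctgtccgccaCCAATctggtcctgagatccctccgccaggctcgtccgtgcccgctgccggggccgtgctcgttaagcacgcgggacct
Hsd17b7, chr1:169969156-169969455, minus strand: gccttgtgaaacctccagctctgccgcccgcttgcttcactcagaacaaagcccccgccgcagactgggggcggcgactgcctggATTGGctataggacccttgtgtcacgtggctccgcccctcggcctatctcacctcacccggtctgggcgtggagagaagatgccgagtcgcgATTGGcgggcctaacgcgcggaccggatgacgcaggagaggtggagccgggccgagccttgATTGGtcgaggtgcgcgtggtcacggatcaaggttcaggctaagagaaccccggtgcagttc
Elovl5, chr9:77917115-77917414, plus strand: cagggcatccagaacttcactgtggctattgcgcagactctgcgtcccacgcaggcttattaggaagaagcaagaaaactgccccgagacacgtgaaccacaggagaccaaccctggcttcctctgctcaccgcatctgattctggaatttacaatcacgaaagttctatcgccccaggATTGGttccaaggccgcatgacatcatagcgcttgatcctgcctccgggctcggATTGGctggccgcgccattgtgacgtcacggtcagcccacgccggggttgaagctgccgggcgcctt
Srebf2, chr15:82147019-82147318, plus strand: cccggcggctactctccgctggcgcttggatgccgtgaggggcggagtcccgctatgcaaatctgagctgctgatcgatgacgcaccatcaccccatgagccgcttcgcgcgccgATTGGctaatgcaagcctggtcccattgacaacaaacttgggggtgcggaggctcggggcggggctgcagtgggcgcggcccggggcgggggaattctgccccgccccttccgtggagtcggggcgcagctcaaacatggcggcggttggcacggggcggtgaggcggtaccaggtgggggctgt
Elovl6, chr3:129532136-129532435, plus strand: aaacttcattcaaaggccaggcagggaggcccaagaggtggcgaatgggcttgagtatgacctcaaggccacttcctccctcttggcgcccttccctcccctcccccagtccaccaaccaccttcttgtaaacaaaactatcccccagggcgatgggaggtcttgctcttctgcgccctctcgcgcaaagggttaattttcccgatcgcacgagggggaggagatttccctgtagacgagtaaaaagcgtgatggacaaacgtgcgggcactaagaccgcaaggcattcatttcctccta
In Idi1 the boxes began 45 and 14 bases before the start, in Elovl5 71 and 17, in Hsd17b7 165, 73 and 12, in Cyp51 29 and in Srebf2 135 bases before it. A match is a run of letters and not a measured binding site.

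The early, mevalonate part of the route showed 1 call among 5 genes, where 23.1% of all genes tested were called higher. Idi1, the isopentenyl diphosphate isomerase, lying at chr13:8884852-8891642 (mm9), measured 7.99, 8.60, 8.66 and 11.2 FPKM in mEpiSC and 5.58, 7.37, 5.91 and 5.66 FPKM in mESC. The states did not overlap, EpiSC9 was the highest, and the log2 difference was 0.50 (SE 0.14; limma, adjusted p = 0.023), with 21.3% of its transcript's 50-base windows shared with other genes. Its adjusted p was 0.067 without mESC 1 and 0.063 without mESC 3. Mvd, the mevalonate diphosphate decarboxylase, averaged 33.4 ± 4.64 FPKM in mEpiSC and 25.8 ± 3.30 FPKM in mESC (log2 0.36, SE 0.14; limma, adjusted p = 0.069). Mvk, mevalonate kinase, averaged 15.8 ± 0.836 and 12.3 ± 2.79 FPKM in the same order (log2 0.36; limma, adjusted p = 0.10), and mESC 2 lay inside the mEpiSC range. Mvk passed the limma test under 1 of the 21 alternatives, without mESC 2 (adjusted p = 0.024). Pmvk, the phosphomevalonate kinase, differed by log2 0.26 (95% interval −0.11 to 0.63). Fdps, farnesyl diphosphate synthase, measured 7.93, 9.68, 10.2 and 23.3 FPKM in mEpiSC and 9.45, 10.9, 7.91 and 12.5 FPKM in mESC. Only EpiSC9 lay above the mESC range. Its level is uncertain, since 86.4% of its windows also occur in other genes, most of them in entries named Gm43738, Gm3571 and Gm5873.

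From squalene onward 4 of 9 genes were higher in mEpiSC, where 23.1% of all genes tested were, and 7 of 9 had a difference above 0. Cyp51, the lanosterol demethylase (chr5:4080674-4104697), measured 46.6, 48.8, 50.8 and 54.7 FPKM in mEpiSC and 27.3, 36.3, 30.2 and 31.2 FPKM in mESC. Its ranges were tight and far apart, and the difference of log2 0.67 (SE 0.12; limma, adjusted p = 0.0027) passed the test under all 21 alternatives. Hsd17b7, a ketoreductase of sterol demethylation (chr1:171879668-171899336), measured 13.5, 11.0, 10.3 and 9.11 FPKM in mEpiSC and 5.36, 6.74, 5.21 and 5.05 FPKM in mESC. All mEpiSC values were higher, with EpiSC9 the lowest of them, and the mean was 1.97 times the mESC mean (log2 0.86, SE 0.15; limma, adjusted p = 0.0025). With 1 mean per line its adjusted p was 0.057.

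Sqle, squalene epoxidase, a rate-controlling step of the sterol route, measured 68.4, 70.7, 67.3 and 72.4 FPKM in mEpiSC and 58.3, 59.9, 43.1 and 40.9 FPKM in mESC. The mEpiSC lines were nearly level, while both ESF175/1 libraries were below both ESF122 libraries. Its log2 difference was 0.47 (SE 0.15; limma, adjusted p = 0.032), and the adjusted p was 0.057 to 0.094 on leaving out mESC 3, mESC 4, mEpiSC 1, mEpiSC 2 or mEpiSC 3. Dhcr7, the reductase that can make the last step to cholesterol, measured 30.2, 38.5, 39.5 and 46.2 FPKM in mEpiSC and 28.1, 28.8, 27.2 and 29.5 FPKM in mESC. The mESC libraries lay close together and EpiSC5 lay just above them (log2 0.42, SE 0.14; limma, adjusted p = 0.038). On leaving out any library other than mEpiSC 1 the adjusted p was 0.054 to 0.097.

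The other 5 genes of the sterol steps did not pass the test. Fdft1, squalene synthase, which commits farnesyl units to sterols, measured 20.3, 12.6, 11.6 and 39.9 FPKM in mEpiSC and 37.3, 33.6, 33.4 and 29.3 FPKM in mESC. EpiSC5 and both EpiSC7 libraries were below all mESC libraries and EpiSC9 was above them. The log2 difference was −0.80 (SE 0.33; limma, adjusted p = 0.089), and without mEpiSC 4 it was −1.16 (adjusted p = 0.0025). Under 2 of the 21 alternatives Fdft1 passed the test. Fdft1 (chr14:63763988-63796630) overlaps the protease gene Ctsb by 773 bases, and Ctsb measured 30.3, 17.1, 12.3 and 43.7 FPKM in mEpiSC and 21.8, 19.4, 17.0 and 17.5 FPKM in mESC. The mEpiSC libraries thus fell in the same order for both genes, and how strand was used in counting is not given in the sources used here, so reads of the overlap cannot be told apart.

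Tm7sf2, a sterol reductase, measured 6.91, 5.72, 5.85 and 11.6 FPKM in mEpiSC and 9.72, 11.8, 7.17 and 6.63 FPKM in mESC. EpiSC9 was again the highest mEpiSC library, and the log2 difference was −0.22 (limma, adjusted p = 0.51). With replicates 1 to 3 only it was −0.54 (limma, adjusted p = 0.045), the 1 of the 21 alternatives in which Tm7sf2 passed. Lss, lanosterol synthase, was close to level at 27.9 ± 4.42 FPKM in mEpiSC and 27.5 ± 4.02 FPKM in mESC, with a 95% interval of −0.33 to 0.37 for the log2 difference. Nsdhl, a dehydrogenase of sterol demethylation, and Ebp, the sterol isomerase, are both on chromosome X and differed by log2 0.28 and 0.43 (limma, adjusted p = 0.27 and 0.19). Each passed the limma test under 1 of the 21 alternatives, without mESC 2 (adjusted p = 0.039 and 0.041).

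Among the 4 regulators Srebf2 was called higher, though not under either other scaling, and Srebf1 and the Insig genes were not. Srebf2, which encodes the factor that mainly drives sterol synthesis, measured 61.7, 59.0, 74.9 and 61.2 FPKM in mEpiSC and 51.0, 54.3, 47.6 and 42.3 FPKM in mESC. The states did not overlap, with a log2 difference of 0.39 (SE 0.12; limma, adjusted p = 0.037). On leaving out mESC 1, mESC 3, mESC 4, mEpiSC 1, mEpiSC 2 or mEpiSC 3 the adjusted p was 0.057 to 0.10, and under median ratio scaling and quantile normalization it was 0.11 and 0.061. Srebf1, whose product mainly drives fatty acid synthesis, averaged 15.0 ± 1.07 FPKM in mEpiSC and 13.3 ± 0.321 FPKM in mESC. Its states did not overlap either, but the difference was small (log2 0.16, 95% interval −0.07 to 0.39; limma, adjusted p = 0.25).

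Insig1, the sterol-responsive retention protein, measured 36.8, 54.4, 71.3 and 81.9 FPKM in mEpiSC and 46.8, 44.9, 48.3 and 38.4 FPKM in mESC. EpiSC5 was the lowest of all 8 libraries and EpiSC9 the highest (log2 0.39, SE 0.23; limma, adjusted p = 0.21). Insig1 passed the limma test under 1 of the 21 alternatives, without mEpiSC 1 (adjusted p = 0.025). Insig2, its paralog, measured 10.2, 12.6, 10.5 and 17.3 FPKM in mEpiSC and 8.66, 8.16, 8.47 and 9.56 FPKM in mESC. Every mEpiSC library lay above every mESC library, at log2 0.46 (SE 0.17; limma, adjusted p = 0.055). Insig2 passed the limma test under 4 of the 21 alternatives, among them without mEpiSC 1 (adjusted p = 0.041) and under the replicate block (0.032). The ratio of Srebf2 to Srebf1 FPKM was 4.28 ± 0.494 in mEpiSC and 3.67 ± 0.448 in mESC, and that of Insig1 to Insig2 was 4.86 ± 1.37 in mEpiSC and 5.16 ± 0.772 in mESC. Neither passed a two-sided exact permutation test (p = 0.143 and 0.629, or 0.286 and 0.629 after adjustment over 4 ratios). Its smallest possible unadjusted p was 0.0286, so a ratio that stood alone could not pass 0.05 after adjustment.

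Stard4, a carrier that moves cholesterol between membranes, was higher in mEpiSC. It measured 37.5, 29.8, 34.3 and 35.8 FPKM in mEpiSC and 21.6, 22.2, 20.5 and 17.8 FPKM in mESC. Each state kept within a narrow range, and the mean was 1.67 times the mESC mean (log2 0.71, SE 0.12; limma, adjusted p = 0.0021), past the test under all 21 alternatives. Acat2, the cytosolic thiolase that joins acetyl-CoA units ahead of mevalonate, measured 35.2, 38.5, 40.5 and 54.4 FPKM in mEpiSC and 30.1, 34.2, 24.8 and 32.7 FPKM in mESC. Its states did not overlap, at log2 0.45 (SE 0.16; limma, adjusted p = 0.055). Acat2 passed the limma test under 4 of the 21 alternatives, among them without mEpiSC 1 (adjusted p = 0.044) and under the replicate block (0.034). In all, 45.9% of its windows are shared, with Acat3 as the main partner, so its level is uncertain.

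The genes that supply and build fatty acid chains did not pass the test. Acly, which makes cytosolic acetyl-CoA from citrate, measured 97.6, 93.2, 117 and 84.0 FPKM in mEpiSC and 108, 110.5, 110.2 and 89.2 FPKM in mESC. The states overlapped, at log2 −0.10 (limma, adjusted p = 0.61). Acss2, which makes acetyl-CoA from acetate, measured 2.11, 3.75, 4.32 and 6.90 FPKM in mEpiSC and 3.02, 4.47, 3.31 and 4.84 FPKM in mESC, so EpiSC5 and EpiSC9 were the lowest and highest of the 8 libraries. Me1, malic enzyme, a source of NADPH, differed by log2 0.39 (limma, adjusted p = 0.090). Of the 20 alternatives that held Me1, it passed under 1, without mESC 2 (limma, adjusted p = 0.047). Acaca, the carboxylase that makes malonyl-CoA, averaged 4.34 ± 0.369 FPKM in mEpiSC and 3.72 ± 0.695 FPKM in mESC (log2 0.19; limma, adjusted p = 0.35), with 52.6% of its windows shared, mainly with Gm5182. Fasn, fatty acid synthase, measured 71.2, 63.7, 69.1 and 39.3 FPKM in mEpiSC and 52.8, 65.9, 44.8 and 44.4 FPKM in mESC. Here EpiSC9 was the lowest of the 8 libraries (log2 0.20, 95% interval −0.28 to 0.68; limma, adjusted p = 0.49).

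The enzymes that modify finished chains held the largest difference of the set, that of Scd2. The summed FPKM of Elovl5, Elovl6, Scd1 and Scd2 was 289, 288, 291 and 388 in mEpiSC and 167, 210.1, 146 and 174 in mESC, and 3 of the 4 genes were called higher, where 23.1% of all genes tested were. Scd2, a stearoyl-CoA desaturase that places the double bond of monounsaturated fatty acids, measured 175, 168, 167 and 254 FPKM in mEpiSC and 78.6, 106, 76.2 and 91.7 FPKM in mESC. The mEpiSC mean was 2.17 times the mESC mean (log2 1.10, SE 0.17; limma, adjusted p = 0.0017), past the test under all 21 alternatives. EpiSC9 stood well above the other mEpiSC libraries, which were themselves all above mESC. Scd1, the desaturase best known from liver and adipose tissue, measured 34.7, 37.3, 40.5 and 36.5 FPKM in mEpiSC and 24.2, 29.97, 16.7 and 14.0 FPKM in mESC. The mEpiSC lines were level, ESF175/1 was below ESF122, and the log2 difference between states was 0.84 (SE 0.22; limma, adjusted p = 0.015; 0.091 with 1 mean per line).

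Both desaturases lie in a cluster of 4 genes on chromosome 19, in the order Scd3, Scd2 (chr19:44368166-44381352), Scd4 and Scd1 (chr19:44468940-44482199). Scd3 and Scd4 did not exceed 0.513 and 0.0553 FPKM in any library and were not tested. The ratio of Scd2 to Scd1 FPKM was 5.17 ± 1.26 in mEpiSC and 4.48 ± 1.50 in mESC (two-sided exact permutation test, p = 0.486, adjusted 0.629).

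Elovl5, the elongase of polyunsaturated chains (chr9:77765172-77832326), measured 47.5, 54.6, 55.9 and 76.0 FPKM in mEpiSC and 30.7, 37.9, 28.6 and 43.7 FPKM in mESC. Both replicate 4 libraries were the highest of their state, and the log2 difference was 0.71 (SE 0.18; limma, adjusted p = 0.014). It was not called where line was a random block (adjusted p = 0.059) or with 1 mean per line (0.093). Elovl6, the elongase of saturated chains, measured 31.7, 28.2, 27.4 and 21.4 FPKM in mEpiSC and 33.3, 36.0, 24.7 and 24.2 FPKM in mESC, with overlap and a log2 difference of −0.11 (limma, adjusted p = 0.65). The ratio of Elovl5 to Elovl6 FPKM was 2.26 ± 0.891 in mEpiSC and 1.23 ± 0.392 in mESC (two-sided exact permutation test, p = 0.0571, adjusted 0.229). After adjustment over 4 ratios this test could not call a ratio that stood alone, so it does not decide whether this ratio differed. The ratio was higher in mEpiSC in 4 of 4 same-numbered pairs, and an exact permutation within pairs, added after the data were seen, gave p = 0.125, the smallest that 4 pairs allow.

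**Figure D3:**
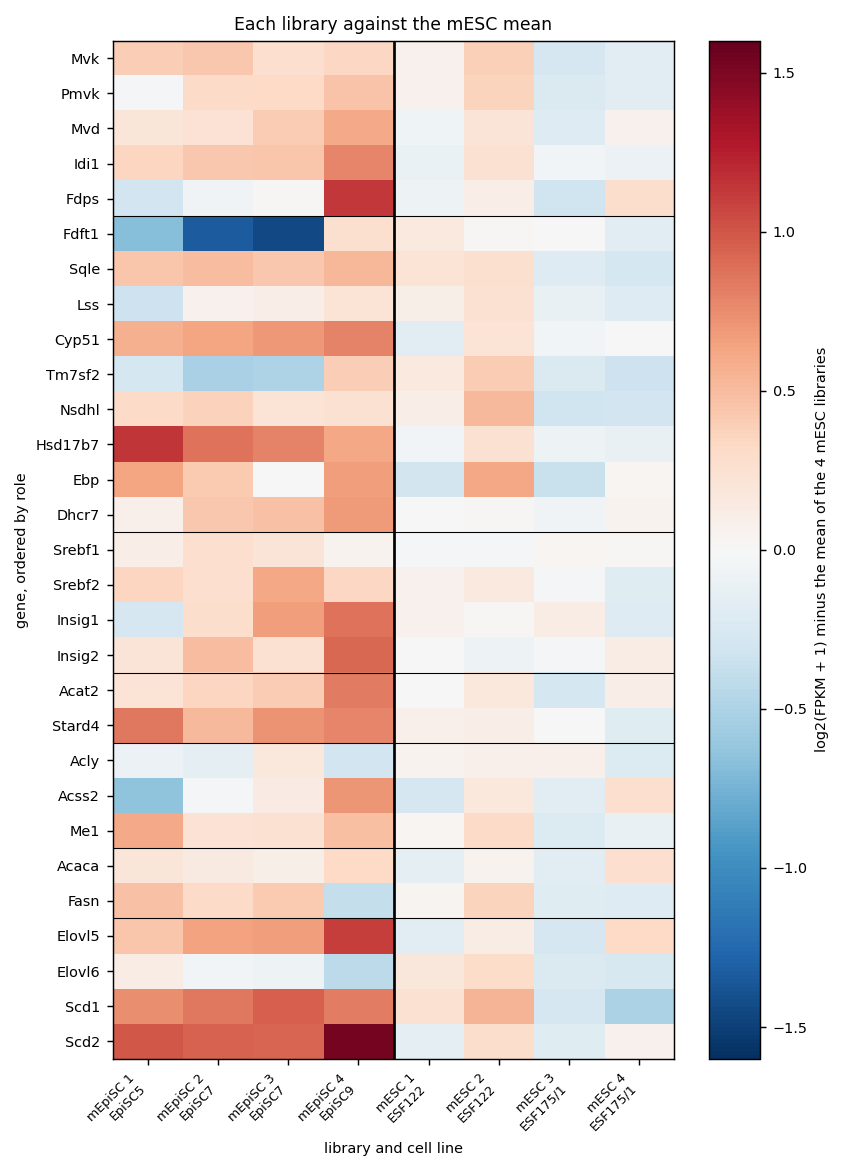
Each gene's log2(FPKM + 1) in each library minus its mean over the 4 mESC libraries, red above and blue below, with mEpiSC libraries left of the thick line. Red dominates on the left, most deeply for Scd2 in mEpiSC 4, and the deepest blue is Fdft1 in mEpiSC 2 and 3.

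The level of the set also varied between libraries of 1 state. The median of the set relative to the mESC mean was 0.21, 0.31, 0.32 and 0.61 on the log2 scale in mEpiSC 1 to 4 and 0.026, 0.22, −0.19 and −0.12 in mESC 1 to 4. Over all genes tested the same medians were 0.041, 0.087, 0.090 and 0.15 in mEpiSC and −0.030, 0.049, −0.057 and 0.023 in mESC. EpiSC9 was the highest of the 8 libraries for 16 of the 29 genes, where it was so for 23.9% of all genes tested. It was the lowest mEpiSC library for 5 genes, among them Hsd17b7, Fasn and Elovl6. EpiSC9 is 1 library, so line and library cannot be told apart.

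Fdft1 was the 1 gene of the set that differed among EpiSC5, EpiSC7 and EpiSC9 (limma F test, adjusted p = 0.025), where 2.6% of all genes tested did. EpiSC5 and EpiSC9 are 1 library each, so the test takes its spread from the duplicate libraries of EpiSC7, ESF175/1 and ESF122 and assumes that the lone libraries vary alike. That call was lost without mEpiSC 2 (adjusted p = 0.088) or mEpiSC 3 (0.11). Between the mESC lines no gene of the set passed the limma test, where 0.762% of all genes tested did. In the same test 8 had an unadjusted p under 0.05, and the share of all genes at that threshold was not computed. In ESF175/1 24 of the 29 genes were lower than in ESF122, with a median log2 difference of −0.17 beside −0.024 over all genes tested. The share of all genes that were lower was not computed. Of the 4 mESC libraries, mESC 2 of ESF122 was the highest for 20 of the 29 genes. The set's median relative to the mESC mean was 0.22 in mESC 2 and 0.026 in mESC 1. Whether the line or that library lay behind the count was not tested. Scd1 had the largest line difference, −0.78 for ESF175/1 minus ESF122 (limma, adjusted p = 0.13). Its difference was −0.63 to −0.93 on leaving out each mESC library, fits that leave a line with 1 library.

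**Figure D4:**
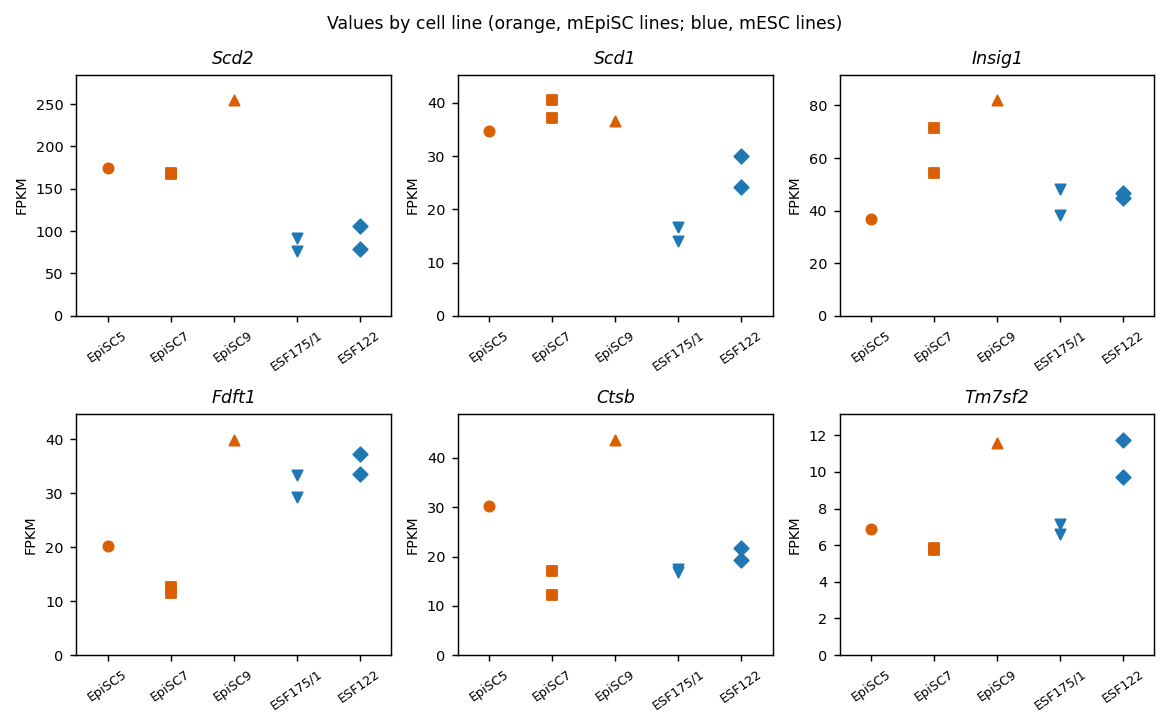
FPKM of 6 genes in each library by cell line, with mEpiSC lines in orange and mESC lines in blue, each point being 1 library. EpiSC9 is the highest mEpiSC line for Scd2, Insig1, Fdft1, Tm7sf2 and Ctsb, the gene that overlaps Fdft1, while for Scd1 the ESF175/1 libraries (16.7 and 14.0 FPKM) are the lowest.

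Genes of both pathways outside the set were also read. Of 12 tested genes of sterol synthesis and uptake outside the set, 4 were higher in mEpiSC and none lower (33.3% and 0%, against 23.1% and 14.2% of all genes tested), with a median log2 difference of 0.34. Sc5d, the sterol desaturase, averaged 23.5 ± 2.15 FPKM in mEpiSC and 14.4 ± 3.18 FPKM in mESC (log2 0.69; limma, adjusted p = 0.0081). Sc4mol, the sterol methyl oxidase, averaged 107 ± 23.3 FPKM in mEpiSC and 71.9 ± 7.56 FPKM in mESC (log2 0.55; limma, adjusted p = 0.027). The number called higher was 2 without mESC 1, mESC 3, mESC 4, mEpiSC 2 or mEpiSC 3. It was also 2 under the fibroblast covariate, with line as a random block and with a mean of at least 5 FPKM, 0 with 1 mean per line, and 7 with replicates 1 to 3 only. The number lower was 1 without mEpiSC 4 and with replicates 1 to 3 only.

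Of 7 tested genes of sterol efflux and storage, 3 were higher and 1 lower (42.9% and 14.3%, against 23.1% and 14.2% of all genes tested). The lower call was lost without mESC 1, mESC 2, mESC 3, mEpiSC 1 or mEpiSC 2, and under the replicate block, the line settings and the fibroblast covariate, and 2 were lower with no filter. With 1 mean per line 1 was higher. Soat1, which esterifies cholesterol for storage, averaged 61.6 ± 11.9 FPKM in mEpiSC and 18.8 ± 10.2 FPKM in mESC (log2 1.79, SE 0.35; limma, adjusted p = 0.0042). Npc2, which carries cholesterol out of the lysosome, averaged 60.3 ± 5.96 FPKM in mEpiSC and 35.7 ± 5.73 FPKM in mESC (log2 0.75; limma, adjusted p = 0.0039).

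Of 19 tested genes of fatty acid synthesis outside the set, 6 were higher and 2 lower (31.6% and 10.5%, against 23.1% and 14.2% of all genes tested), with a median log2 difference of 0.28. With 1 mean per line the numbers were 0 and 1, and 1 was lower with a mean of at least 5 FPKM. Elovl1, the elongase of very long chains, averaged 14.8 ± 3.66 FPKM in mEpiSC and 7.70 ± 1.48 FPKM in mESC (log2 0.85; limma, adjusted p = 0.0080). Acyl-CoA synthetases, which activate fatty acids, went both ways. Acsl4 averaged 36.7 ± 12.8 FPKM in mEpiSC and 16.5 ± 6.00 FPKM in mESC (log2 1.09, limma adjusted p = 0.022). Its states overlapped, and it passed under 13 of the 21 alternatives. The limma adjusted p for Acsl4 was 0.15 both with 1 mean per line and under the fibroblast covariate. Acsl1 averaged 3.04 ± 0.688 FPKM in mEpiSC and 7.50 ± 1.35 FPKM in mESC (log2 −1.07, limma adjusted p = 0.0018), and passed under all 21. Acacb, the acetyl-CoA carboxylase of the mitochondrial surface, averaged 1.05 ± 0.306 FPKM in mEpiSC and 2.45 ± 0.334 FPKM in mESC (log2 −0.76; limma, adjusted p = 0.0064).

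**Figure D5:**
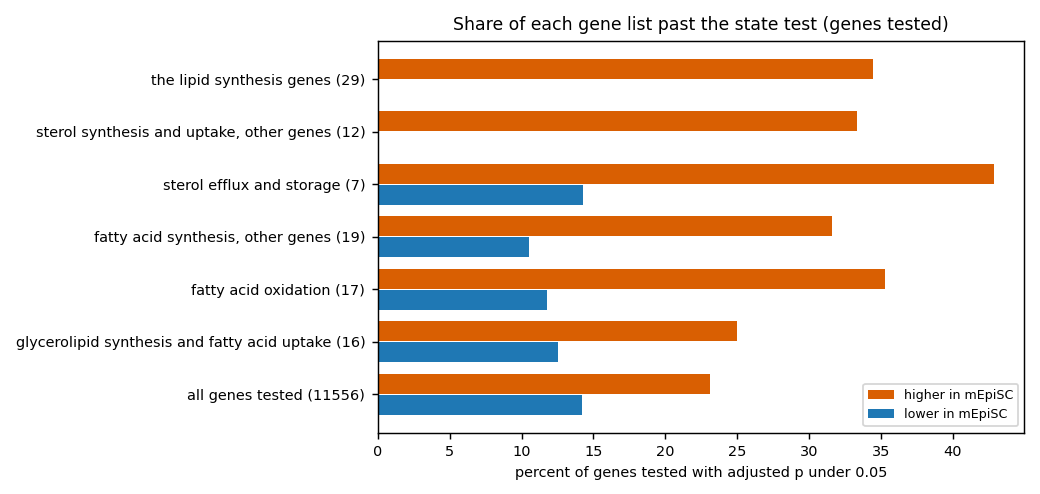
Percent of tested genes in each list with an adjusted p under 0.05, higher in mEpiSC in orange and lower in blue, with the number tested in brackets and all genes at the bottom. The bar for the 29 genes stands at 34.5% higher and 0% lower, beside 23.1% and 14.2% of all genes tested.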

How the data were processed

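The authors deposited FPKM (fragments scaled by transcript length and library depth) per gene for each of 8 libraries of polyadenylated mouse RNA, with lower and upper bounds, per the file headers. TopHat2 2.0.6, Cufflinks 2.0.2 and genome build mm9 are named in the submitters' processing notes. The annotation, options and strand setting were not given in the sources used here.

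Of 23699 entries, those naming a gene at 1 locus were kept. FPKM values are not counts, so log2(FPKM + 1) was fitted with limma 3.58.1 (R 4.3.3, trend and robust options) over the 11556 genes that reached 1 FPKM in 4 or more libraries. Low FPKM values gave whole fragments (tolerance 0.05) for only 80.2 to 81.0% of genes, so no count test was run. mEpiSC was set against mESC without a block, and cell lines were fitted as 1 mean per line. Ratios of related genes were compared by exact permutation of their log2 values, over all libraries and, added after the data were seen, within replicate numbers. The scripts were tested on simulated data. Same-numbered libraries deviated together (correlations 0.22, 0.15, 0.18 and 0.51), but libraries of different numbers were not correlated for comparison. The replicate number was taken as a possible pairing only in the replicate block and the permutation within pairs, not in the main fit. That pairing rests on the data, since no label says it.

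Named genes were the set itself and the genes of related lists that passed the test; some of these are not reported here. The genes and lists were chosen with earlier results of these data known. Shared windows are 50-base stretches of GENCODE transcripts found in another gene.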

Additional observations from a re-analysis of the deposited data

Results flagged for a closer look

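Among 58 groups of 4 libraries (29 genes in 2 states), 3 held a library far from the other 3 by Dixon's 95% critical value for the gap over the range, and chance alone flags about 1 group in 20. Fdps stood at 23.3 FPKM in mEpiSC 4, the EpiSC9 library, against 7.93 to 10.2 FPKM in the other mEpiSC libraries. Scd2 stood at 254 FPKM in the same library, against 167 to 175 FPKM in the others. Acly stood at 89.2 FPKM in mESC 4, an ESF175/1 library, below 108 to 110.5 FPKM in the other mESC libraries. All 3 flags fell in the replicate 4 libraries that stood apart on the second principal component.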

How the results depend on the processing

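The 10 genes higher in mEpiSC became 5 where line was a random block, 3 with 1 mean per line and 7 under median ratio scaling. On leaving out each library they became 6 to 13. The 6 came without mESC 3 (16.5% of all genes higher) and the 13 without mESC 2 (21.9%). The 0 genes lower became 2 with replicates 1 to 3 only, where 18.7% of all genes were lower, and 0 to 1 on leaving out each library. At an unadjusted p under 0.05 the limma test gave 16 genes in either direction. The share of all genes tested at that threshold was not computed, and 37.3% of them passed the adjusted test. The 16 are therefore not read as a result about the set. Between ESF175/1 and ESF122 no gene of the set was called in the main fit. Leaving out a library there leaves a line with 1 library, so calls from those fits are not counted. Among the EpiSC lines the Fdft1 call was lost without mEpiSC 2 or mEpiSC 3. The median log2 difference ranged over 0.28 to 0.52 across the alternatives. The causes were not tested. With the replicate number as a block 12 genes (41.4%) were higher, against 27.3% of all genes tested. They were the 10 plus Insig2 and Acat2, and no other call of the set changed. FPKM carries no counts, so depth limits are known only from implied fragments, at least 244 for each gene in each library.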

Other observations

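Genes that burn or store fatty acids moved in both directions. Of 17 tested genes of mitochondrial fatty acid oxidation, 6 (35.3%) were higher in mEpiSC and 2 (11.8%) lower (limma, Benjamini-Hochberg adjusted p under 0.05), where 23.1% and 14.2% of all genes tested were, and the median log2 difference was 0.13. Acadl, the long-chain acyl-CoA dehydrogenase, averaged 26.9 ± 2.67 FPKM in mEpiSC and 10.7 ± 3.15 FPKM in mESC (log2 1.28; limma, adjusted p = 0.0012). Its medium-chain counterpart Acadm averaged 19.4 ± 2.26 FPKM in mEpiSC and 31.8 ± 1.96 FPKM in mESC (log2 −0.69; limma, adjusted p = 0.0024). The number higher was 3 without mESC 3 and 1 with 1 mean per line, and the number lower was 1 without any 1 library other than mEpiSC 4. The number lower was also 1 under both line settings, the fibroblast covariate, a pseudocount of 0.1 and a mean of at least 5 FPKM.

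Of 16 tested genes of glycerolipid synthesis and fatty acid uptake, 4 were higher and 2 lower, with a median log2 difference of 0.31. These shares of 25.0% and 12.5% were close to the 23.1% and 14.2% of all genes tested. The number lower was 1 without mESC 1, mESC 3, mESC 4, mEpiSC 1, mEpiSC 2 or mEpiSC 3. It was also 1 with line as a random block, under the fibroblast covariate, with no filter and with a mean of at least 5 FPKM. With 1 mean per line it was 0. Fabp5, a fatty acid carrier, averaged 17.3 ± 7.56 FPKM in mEpiSC and 3.43 ± 1.29 FPKM in mESC (log2 2.00; limma, adjusted p = 0.0020). Plin2, a coat protein of lipid droplets, averaged 50.8 ± 27.8 FPKM in mEpiSC and 13.8 ± 2.69 FPKM in mESC (log2 1.70; limma, adjusted p = 0.0029). Vldlr, a lipoprotein receptor, averaged 5.88 ± 1.01 FPKM in mEpiSC and 1.85 ± 0.793 FPKM in mESC (log2 1.30; limma, adjusted p = 0.0023).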
